A study of Mus musculus and synthetic construct with 21 samples.

Results

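The elements described here are the w sites of pool 3, a set of designed DNA elements tested for enhancer activity in 3T3-L1 cells. They were chosen by name, and every pool 3 element with the code w after the prefix PPRE was taken. The forms coded d and t were paired by site number. This gave 3000 of the 6000 elements of the pool, or 1500 of its 3000 sites, and the other 1500 sites are coded c. Form d is read here as carrying an altered motif and form t as native, since the names do not spell out the codes. Each site therefore has an altered element and a native element named by the same 16-base sequence; which bases were changed is not analysed here.

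3T3-L1 is a mouse pre-adipocyte line that turns into adipocytes when induced. The labels describe induction, after the cells had become confluent, by insulin (1.7 µM), dexamethasone (1 µM) and 3-isobutyl-1-methylxanthine (0.5 mM), and the series' design text places RNA extraction 16 h after transfection. All elements were in 1 plasmid pool and entered the same culture, so altered and native elements shared cell line, induction and time. In the massively parallel reporter assay a barcode in the reporter transcript tells which element produced it, and its RNA count is set against its count in the plasmid library. There was 1 RNA library with 37267216 counts and 1 plasmid library with 56246463 counts. No library had a replicate, so the spreads and p-values below cover barcodes of 1 experiment and not separate cultures.

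The formation of adipocytes depends on PPARγ, a nuclear receptor. It binds DNA as a pair with the receptor RXR, at a direct repeat of a half-site with a single base between the copies, called DR1. In this pair PPARγ takes the 5′ half-site, and it also contacts the bases just before it, while RXR takes the 3′ half-site.

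The named 16-base sequences held a DR1-like pattern in a fixed frame. With both half-sites set to AGGTCA and any base as the spacer, read on both strands and at every place, the best match of 1475 of the 1500 w sites lay on the given strand after the first 3 bases. Bases 4 to 9 are then the 5′ half-site, base 10 is the spacer and bases 11 to 16 are the 3′ half-site. The w sites had a median of 4 mismatches among the 12 fixed bases, with a range of 0 to 7. The 1500 sites had 1482 distinct sequences, lay on 20 chromosomes, and were named on the plus strand in 735 cases and on the minus strand in 765. The sequences of 8 sites with large changes or high native activity are printed here, to show how differently they match DR1. Capitals mark half-site bases that equal AGGTCA.
w1336: agtAGGcCAaAGaTCA
w1092: agtgGagttaAGGTCA
w912: gctAGGgtAgAGGTCA
w691: tgcAGGTCAgAGGaCA
w4: tgctGtgCAaAGGggA
w552: agtgGaTtAaAaGgCA
w30: agtAaGgCAgAGGgaA
w1098: tgtAGGcCAaAGtggA
Their coordinates on mm9, counted from 1, are given with their values. Genes near the sites are not given, as no mm9 annotation was at hand.

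For each barcode with 20 or more plasmid counts, 1 was added to both counts, both were divided by the totals of their libraries, and the log2 ratio of RNA to plasmid was taken. The activity of an element is the median of these ratios over its barcodes. Altered w elements had a median activity of -0.88 (quartiles -1.44 and -0.46; range -5.26 to 4.36; n = 1498), and native w elements a median of -0.53 (quartiles -1.04 and 0.18; range -5.80 to 5.87; n = 1500). The forms differed most at the top of the scale. The 95th percentile was 0.59 among altered w elements and 2.21 among native ones. At the low end the 5th percentiles were -3.09 and -2.69 for altered and native elements.

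Alteration lowered activity at 221 of 1308 tested w sites and raised it at 13. Each site was tested over its barcodes with a 2-sided exact rank-sum test, adjusted by Benjamini-Hochberg over all 2600 pool 3 sites with at least 5 passing barcodes in each form, and called at an adjusted p under 0.05. Over all pool 3 sites tested, 9.46% were called lower in the altered form and 0.731% higher. Among w sites the shares were 16.9% and 0.994%, and among c sites 1.93% and 0.464%. Without adjustment, 339 w sites were lower and 30 higher at p under 0.05. The 221 lowered sites had differences from -7.17 to -0.29, with a median of -1.84. Their median activity was -0.61 in the altered and 1.27 in the native form.

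Over all w sites the altered minus native difference averaged -0.60 ± 1.37 (SD, n = 1498) with a median of -0.44, which is a ratio of 0.736. It was below 0 at 1053 sites (70.3%) and above 0 at 445. Over c sites the mean was -0.18 ± 1.24 (SD, n = 1497) and the median -0.098, and over all 2995 pool 3 sites with both forms the mean was -0.39 and the median -0.28. These class values are descriptions, as sites are not replicates and no test was made of the difference between classes. Differences below -2 were found at 204 w sites and above 2 at 43. Many of these rest on few barcodes: with at least 10 passing barcodes in each form (942 sites), 94 lay below -2 and 4 above 2.

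The spread of differences fell with barcode support. Altered w elements had a median of 12 passing barcodes (quartiles 8 and 14) and native ones 13 (quartiles 10 and 14), of 15 designed. The site difference had an SD of 2.20 where the less covered form had at most 4 barcodes (190 sites), 1.68 with 5 to 7 (190 sites), 1.34 with 8 to 10 (265 sites), 0.996 with 11 to 13 (559 sites) and 1.03 with 14 or 15 (294 sites). Its median over the same groups was -0.32, -0.42, -0.65, -0.47 and -0.37. The share of tested sites called lower was 4.74% with 5 to 7 barcodes, 7.55% with 8 to 10, 20.8% with 11 to 13 and 25.9% with 14 or 15. Plasmid counts per barcode moved with support, from medians of 141.5 in altered and 175.75 in native elements with 5 to 7 barcodes to 794.25 and 925.5 with 14 or 15; their part in these shares was not tested. Differences larger than 2 in either direction were measured at 32.6% of sites in the lowest support group and at 9.18% in the highest.

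Barcodes of the same element varied widely. The median SD over the barcodes of an element was 1.59 for altered and 1.26 for native w elements with at least 5 passing barcodes. Of the passing barcodes, 5.66% had 0 RNA counts in altered and 3.52% in native w elements. Setting the odd barcode columns of each site against the even ones shows how far single differences repeat. Over 1445 w sites the 2 estimates of the difference had r = 0.264 and rho = 0.286, and over the 942 sites with at least 10 barcodes in each form r was 0.518. Levels repeated better than differences: r was 0.350 for altered and 0.669 for native elements. These correlations run across sites, and both sets of columns share 1 RNA and 1 plasmid library.

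The number of plasmid counts behind a barcode moved with its activity, and the forms differed in it. Altered w elements were less covered, with a median over elements of 307.75 plasmid counts per passing barcode, against 450 for native ones. The altered form was the less covered one at 1018 of 1498 sites (68.0%). Barcodes with 20 to 49 plasmid counts had a median log2 ratio of -3.34 in altered and -2.75 in native elements, and 43.8% and 36.8% of them had 0 RNA counts. With 1000 or more plasmid counts the medians were -0.54 and -0.21, and no barcode had 0 RNA counts. Within the 5 classes of plasmid count, from low to high, the altered minus native difference of these medians was -0.60, -0.60, -0.55, -0.41 and -0.32, so altered barcodes were lower in each class. Where the altered form was the less covered one, the median site difference was -0.61 and 171 of 896 tested sites (19.1%) were called lower. Where it was equally or better covered, the median was -0.26 and 50 of 412 (12.1%) were called lower.

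With plasmid count taken into account in other ways, the mean difference was closer to 0 and still negative. After each barcode was centred on the median of pool 3 barcodes of like plasmid count, the mean w difference was -0.47 and the mean c difference -0.050, and 190 w sites were called lower, 186 of them also among the 221. With a minimum of 300 plasmid counts the means were -0.50 for w and -0.076 for c sites, and 182 of 804 tested w sites were called lower. Of the 221 called sites, 167 were called there too and 38 had too few barcodes left for a test. These alternatives were chosen after seeing the data.

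Native activity and difference rest on the same native barcodes in the accounts of single sites. The largest difference at a site with all 15 barcodes passing in both forms was at w912 (chr5:24327468-24327483, minus strand). Its 15 altered barcodes had a lowest, median and highest log2 ratio of -0.16, 0.92 and 1.79, and its 15 native barcodes 4.20, 5.87 and 6.20. Every altered barcode lay below every native one, and the difference was -4.94, a 30.8-fold lower activity (exact rank-sum adjusted p = 4.21e-06). This native element was the most active of all w elements. Its 5′ half-site has both of its mismatches, and its 3′ half-site is the consensus.

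At w691 (chr8:28256996-28257011, plus strand) the 14 altered barcodes ran from -1.59 to 0.68 with a median of -0.51, and the 15 native ones from 3.38 to 4.93 with a median of 4.09. The difference of -4.60 had adjusted p = 4.21e-06 by the exact rank-sum test, and the barcode values of the forms did not overlap. Only 1 base of its DR1 differs from the consensus. The site w4 (chr11:100864516-100864531, minus strand) changed by about as much with 5 mismatches. Its 13 altered barcodes ran from -1.03 to 1.71 with a median of 0.18, and its 14 native ones from 4.12 to 5.55 with a median of 4.77. The difference was -4.59 (exact rank-sum adjusted p = 6.94e-06), again with no overlap.

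The most deeply counted of the 12 called sites with the lowest differences was w552 (chr10:10869879-10869894, minus strand), with a median of 6419 plasmid counts per barcode in the altered and 8048.5 in the native form. Its 14 altered barcodes ran from -1.71 to 0.22 with a median of -0.62, and its 14 native ones from 2.48 to 3.37 with a median of 3.12. The forms did not overlap, and the difference was -3.74 (exact rank-sum adjusted p = 4.21e-06). This DR1 has 5 mismatches, spread over both half-sites.

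The numerically largest difference among called sites, -7.17 at w1336 (chr14:35303257-35303272, plus strand), rests on fewer counts. Its 6 altered barcodes ran from -4.44 to 1.34 with a median of -3.39, and its 12 native ones from -4.21 to 4.19 with a median of 3.78 (exact rank-sum adjusted p = 0.0162). The barcodes of the forms overlapped, and the altered form had a median of 103.5 plasmid counts per barcode, against 304.5 in the native form. No altered barcode reached 300 plasmid counts, and the difference was -5.61 after centring by plasmid count. At w1423 (chromosome 3) the altered form had a median of 73 plasmid counts and the native form 573, and the difference of -4.56 (adjusted p = 0.000105, exact rank-sum test) was -2.28 after centring. At w1092 (chr11:6271605-6271620, plus strand) the difference was -5.24 (adjusted p = 6.12e-05, exact rank-sum test). Its 9 altered barcodes reached at most 0.12, while the lowest of its 15 native barcodes was 2.65.

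The remaining 5 of the 12 lowest called sites were w1368, w226, w966, w1048 and w992, on chromosomes 2, 4, 15, 1 and 18. Their differences ran from -4.50 to -3.78, with adjusted p between 0.000102 and 0.000391 by the exact rank-sum test, and the barcodes of the forms overlapped at each. Over all w sites tested, every altered barcode lay below every native one at 43 sites (3.29%), against 1.73% of all pool 3 sites tested and 0.155% of the c sites tested. The opposite arrangement was found at 1 w site (0.0765%), against 0.0385% of all sites tested.

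The 4 highest native activities among well-supported sites were those of w912, w1024, w4 and w30. At w30 (chrX:72621688-72621703, plus strand) the 14 altered barcodes ran from -1.99 to 3.22 with a median of 1.46, and the 14 native ones from 3.72 to 5.22 with a median of 4.71, with no overlap. Its difference was -3.25 (exact rank-sum adjusted p = 4.21e-06). At w1024 (chromosome 7) the altered form had a median log2 ratio of 3.72 over 13 barcodes, against 5.01 over 13 native barcodes, which is a 2.44-fold lower activity. The difference of -1.29 passed the exact rank-sum test (adjusted p = 0.0109) and did not pass with limma (adjusted p = 0.0504).

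At 13 of 1308 tested w sites (0.994%) the altered element was called the more active one, with differences from 0.29 to 3.98. The share called higher was 0.731% over all pool 3 sites tested and 0.464% over c sites. Whether these shares differ was not tested. Of the 13, 6 were also called with limma, 4 with the odd and 2 with the even barcode columns. Fewer barcodes were tested in the column sets. The clearest of the 13 was w1098 (chr6:3128374-3128389, plus strand). Its 15 altered barcodes ran from 3.33 to 5.07 with a median of 4.36, and its 14 native ones from -0.15 to 1.52 with a median of 0.38. No barcode of the native form reached the lowest of the altered form, and the difference of 3.98 had adjusted p = 4.21e-06 by the exact rank-sum test. The altered element of this site was the most active of all altered w elements. Plasmid counts were alike, with medians of 813 per barcode in the altered and 758 in the native form.

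Of the other sites raised by alteration, w675 (chromosome 15) had an altered median of 0.70 over 15 barcodes and a native median of -1.21 over 15 barcodes, a difference of 1.91 (exact rank-sum adjusted p = 0.000756). At w365 (chromosome 2) the altered median was 1.47 and the native median 0.23, a difference of 1.24 (exact rank-sum adjusted p = 0.00113). Native barcodes overlapped altered ones at both. The calls at w569 (2.77; adjusted p = 0.0149), w167 (3.42; adjusted p = 0.0461) and w1182 (1.30; adjusted p = 0.0187) were all made by the exact rank-sum test. With the odd or the even barcode columns alone the calls at w675 and w569 were lost in both cases and that at w365 with the even columns. At w1182 the call was lost in 6 of the alternatives, and at w167 when barcodes with 0 RNA counts were left out. At w167 only 6 altered and 8 native barcodes were counted, with medians of 65.5 and 133.5 plasmid counts.

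Differences were larger at sites with higher native activity. Native level is part of the difference, so the level was taken from the odd barcode columns and the difference from the even ones. In 5 equal groups of sites from low to high native level, the median difference was -0.17, -0.23, -0.19, -0.62 and -1.69. The altered element was the lower one at 57.5%, 59.5%, 59.1%, 76.6% and 88.4% of the sites of these groups, which held 291 or 292 sites each. In the highest group, where native levels ran from 0.48 to 5.96 in the odd columns, the even columns gave a median of -0.32 for altered and 1.34 for native elements. Over all 1457 sites rho between native level and difference was -0.309, and -0.338 with the column sets exchanged. Grouping by the level of the altered element in the same way gave median differences of -0.66, -0.53, -0.36, -0.50 and -0.67, with rho = -0.0277 (n = 1452).

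Taking the level and the difference from the same barcodes changes this picture. The lowest native group then had a median difference of 0.42 and rho became -0.639 (n = 1498). Errors in the native level enter both values there, and more barcodes and sites are used. The part of each in the change was not tested. In the values that follow, level and difference also come from the same barcodes. The 4 lowest native activities among sites with at least 10 barcodes in each form, at w1009, w262, w661 and w1498, ran from -4.10 to -2.84. Their altered minus native differences of 3.06, 1.68, 2.13 and 1.71 did not pass the exact rank-sum test (adjusted p = 0.401, 1.0, 0.629 and 0.263). Their native barcodes had medians of 136.5, 90, 82.5 and 130 plasmid counts, all far below the median of 450 over native w elements.

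Fewer altered than native w elements passed a mark set by altered c elements. The mark is the 95th percentile of altered c elements, -0.056. It lies above most of the pool, but below the upper quartile of native w elements, 0.18, so passing it does not mean high activity. It was passed by 181 of 1498 altered w elements (12.1%) and 459 of 1500 native w elements (30.6%), against 87 of 1500 native c elements (5.80%). At 336 w sites the native element alone passed it, at 123 both forms did, at 58 the altered element alone did, and at 981 neither did. Of the 221 lowered sites, 162 were among the sites where the native element alone passed and 49 among those where both did. Where both passed, the median difference was -0.78. The mark and the calls rest on the same barcodes, so this split is a description.

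The match of the 16-base sequence to DR1 was only weakly related to the loss. Across 1498 w sites rho between the number of mismatches and the difference was 0.105, so sites with more mismatches lost slightly less, and across 1500 native elements rho with the level was -0.0929. The points share both libraries. By mismatches, the median difference was -0.55 with 0 or 1 (67 sites), -0.61 with 2 (196 sites), -0.61 with 3 (427 sites), -0.41 with 4 (517 sites), -0.34 with 5 (234 sites) and -0.11 with 6 or 7 (57 sites). The share called lower ran 13.1%, 22.5%, 20.2%, 15.2%, 12.9% and 9.26% over the same groups. The highest share was thus found with 2 mismatches and not with the closest matches.

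Sites with a full consensus DR1 are too few to set their share of calls apart from that of all w sites. There were 10 such w sites, printed here because they match both half-sites in full.
w235: aaaAGGTCAgAGGTCA
w507: cagAGGTCAgAGGTCA
w1428: agtAGGTCAaAGGTCA
w410: tccAGGTCAaAGGTCA
w952: tgtAGGTCAaAGGTCA
w837: agcAGGTCAaAGGTCA
w282: tggAGGTCAgAGGTCA
w853: tttAGGTCAtAGGTCA
w1235: tacAGGTCAaAGGTCA
w669: tggAGGTCAaAGGTCA
Altered elements had a median activity of -1.17 and native ones -0.53 over these 10 sites. The altered element was the lower one at 9 of the 10, with a median difference of -0.67, and 0 of the 8 tested sites were called lower or higher by the exact rank-sum test, with 1 of the 8 at an unadjusted p under 0.05. Over all w sites tested, 16.9% were called lower, and 8 sites are too few to set 0 calls apart from that share. With limma and with the permutation test of barcode means, 0 of the 8 were called. Of these, w1428 had the lowest adjusted p, 0.0885, with a median of -1.26 over 14 altered barcodes and -0.20 over 11 native ones. It passed after centring by plasmid count, with a difference of -1.18 and adjusted p = 0.0409 by the exact rank-sum test.

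The deepest of them was w1235 (chr19:3912405-3912420, minus strand), with medians of 2935 plasmid counts per barcode in the altered and 2922 in the native form. Its 15 altered barcodes ran from -1.20 to 0.27 with a median of -0.59, and its 15 native ones from -1.63 to 0.05 with a median of -0.52. The difference was -0.071 (exact rank-sum adjusted p = 0.98). Altered and native barcodes covered nearly the same range. The exception in direction, w669 (2.25), had 3 barcodes in each form and was not tested.

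Sites with either half-site at the consensus had differences of like size. Sites with a consensus 5′ half-site had a median difference of -0.59 (77 sites; 14 of 72 tested called lower), and those with a consensus 3′ half-site -0.56 (230 sites; 41 of 202). With 4 mismatches in the 5′ half-site the median difference was -0.16 (106 sites; 8 of 92 tested called lower), and with 5 it was -0.36 (16 sites; 2 of 16). With 4 mismatches in the 3′ half-site, the most found there, it was -0.52 (9 sites; 1 of 7). Over all w sites tested, 221 of 1308 (16.9%) were called lower. The shares were 19.4% with a consensus 5′ half-site, 20.3% with a consensus 3′ half-site and 8.70% with 4 mismatches in the 5′ half-site. Whether they differ from the share over all w sites was not tested. By content of G and C, rho with the difference was 0.0229.

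The base just before the 5′ half-site went with the size of the loss, as did bases at other positions. Of all 16 positions, base 3 had the widest range of medians between bases carried by at least 100 sites, a comparison made after its values were seen and given without a test. With T at base 3 the median difference was -0.65 (748 sites), and with another base -0.34 (750 sites). The share called lower was 22.6% (149 of 658) with T and 11.1% (72 of 650) without it. Native medians were -0.44 with T and -0.63 without it, while altered medians were -0.89 and -0.87. Plasmid counts per barcode were alike, with altered medians of 310 with T and 304.5 without it, and native medians of 462 and 440.25. Base 5 had nearly as wide a range: with A there the median difference was -0.17 (178 sites; 12 of 155 tested called lower), with T -0.55 (125 sites; 22 of 111), and with G, the consensus base, -0.49 (1177 sites; 186 of 1025). With G at base 8 it was -0.67 (59 of 268 called lower), and with C, the consensus base, -0.40 (124 of 838). At base 4, 11 of 174 were called lower with T and 111 of 570 with G. At base 1, 10 of 141 were called lower with C and 116 of 608 with A.

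The share was higher with T in each class of mismatches. With 0 to 2 mismatches the share called lower was 22.5% with T and 18.2% with another base, with 3 mismatches 31.2% and 10.9%, and with 4 to 7 mismatches 18.9% and 8.20%. With a minimum of 300 plasmid counts the shares over all sites were 29.3% with T and 15.8% without it, and after centring by plasmid count 19.6% and 9.38%. The most frequent starts of this kind were AGT (164 sites; 36 of 146 tested called lower) and ACT (142 sites; 34 of 128), while AAT had a lower share (45 sites; 4 of 37). Among listed starts without T at base 3, AGC had 8 of 45 tested sites called lower, AGG 6 of 43, AGA 8 of 60 and TGG 3 of 30. AGC thus had a higher share than AAT.

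At the spacer, T was rare and went with larger losses. Its 28 sites had a median difference of -0.96, and 10 of 25 tested (40.0%) were called lower. Their altered median was -0.75 and their native median 0.029. A spacer of A gave -0.46 (929 sites; 146 of 809 called lower), G gave -0.42 (512 sites; 63 of 449) and C gave -0.22 (29 sites; 2 of 25). After centring by plasmid count the median with T was -0.56, and 10 of 25 were again called lower. The group of 28 sites was singled out after its values were seen.

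Some 16-base sequences stood at more than 1 w site. There were 14 sequences carried by more than 1 w site, 32 sites in all, and the difference varied within a sequence by a median of 0.97 and by 0.050 to 4.73. In 2 of the 14 groups a site was called lower, and in 0 were all sites called. For scale, the odd and the even barcode columns of the same site gave differences that were apart with an SD of 1.97 over w sites, and of 1.19 at sites with at least 10 barcodes in each form. These SDs are between estimates from 8 and 7 columns, while the ranges within a sequence use all 15, so the measures are not alike. Whether sites with the same sequence differed was not tested. The 3 groups with more than 2 sites are printed here.
w478, w1490, w1147 and w495: gcctGcaCAgAGGgCA
w143, w198 and w292: tggAGGTCAgAGGaCA
w108, w373 and w631: agtgaGgCAgAGGctg
The first group lay on the minus strand between chr9:31324914-31324929 and chr9:31325201-31325216. The altered medians were -0.65, -0.25, 0.66 and -0.56 in order of position, and the native medians -0.57, 0.64, 1.55 and 0.10. Only w1147 was called, with a difference of -0.89 (exact rank-sum adjusted p = 0.0334), and it was not called in 5 of the alternatives.

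The near-consensus group had 1 mismatch and lay at 3 separate places, on chromosomes 10, 6 and 8. Altered medians were -1.45, -1.26 and -0.38, native medians -0.82, -1.15 and -0.074, and none of the 3 sites was called (adjusted p = 0.745, 0.797 and 0.902 by the exact rank-sum test). Their sequence is that of w691 in bases 4 to 16, where the difference was -4.60. The group with 6 mismatches lay close together on the minus strand, between chr14:79466824-79466839 and chr14:79467126-79467141. In this group the difference at w631 was 4.34 from 4 altered and 7 native barcodes, too few for the test. The sites w108 and w373 had -0.18 and -0.40.

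Some of the 16-base sequences were also measured at other places in pool 1, whose w sites are a separate set with 9 barcodes each. There were 17 such sequences, giving 18 pairs of sites. The altered element was the lower one at 11 of 18 in pool 3 and 15 of 18 in pool 1, and at 10 of 18 in both. By the exact rank-sum test, adjusted within each pool, 5 sites were called lower in pool 3 and 4 in pool 1, with 2 sequences called lower in both, and w1098 was called higher in pool 3. Too few barcodes passed for a test at w669, w719 and w1394 in pool 3 and at the pool 1 site paired with w759. Over all w sites tested in pool 3, 16.9% were called lower. The share over all pool 1 sites is not given here, and whether these counts exceed such shares was not tested. One of the sequences called lower in both pools is shown with the sequence whose direction differed most among called sites.
w383: tgtAGGTaAaAGtTtA
w1098: tgtAGGcCAaAGtggA
At w383 (chr11:97183218-97183233) the altered median was -0.76 and the native median 2.91 (difference -3.67; exact rank-sum adjusted p = 4.21e-06), and at the pool 1 site with its sequence (chr19:4135560-4135575) they were -0.38 and 2.41 (difference -2.79; adjusted p = 0.00178). The sequence of w1098, which rose on alteration in pool 3, stood at a pool 1 site with an altered median of -0.18 and a native median of 0.80 (difference -0.98; exact rank-sum adjusted p = 0.122). Activity levels of different pools are on separate scales, and rho between the differences of the pools was -0.0145 over the 18 pairs.

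There were also 17 of the w sequences that stood at c sites of pool 3, giving 50 pairs of a w and a c site, in which sites recur. Most of the pairs set w143, w198 and w292 against the same c sites, or w283 and w469 against another shared set of c sites. The counts and medians over pairs therefore rest largely on these sites and are not 50 separate comparisons. The native w element was more active than the native c element in 36 of the 50 pairs, with medians of -0.80 and -1.01. The median altered minus native difference was -0.35 for the w and 0.16 for the c members of these pairs. Of the w sites in them, w419 and w1040 were called lower, and of the c sites none with a test was. Over all sites tested, 16.9% of w sites and 1.93% of c sites were called lower. The sites in these pairs are too few to set their calls apart from those shares.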

How the data were processed

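Barcodes of pool 3 were counted in 1 RNA library from transfected 3T3-L1 cells and 1 plasmid library. The deposited values are raw read counts per element and barcode, whole numbers in 15 barcode columns, per the design text of the series. Per the submitters' processing notes the build is mm9; the counting tool is not given in the sources used here. Pool 1 counts were used for shared sequences.

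Barcodes with at least 20 plasmid counts were kept, log2 ratios were formed with a pseudocount of 1, and activity was their median. Sites were tested with 2-sided exact rank-sum tests over barcodes. Classes and groups of sites were described without tests. The alternatives included limma 3.58.1 under R 4.3.3; Python 3.11.15, numpy 2.4.6, scipy 1.17.1 and pandas 2.3.3 were used.

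Named sites were the 12 lowest and 6 highest called differences, sites with 0 mismatches, the 4 highest and 4 lowest native activities with at least 10 barcodes in each form, and 3 groups sharing a sequence; others were chosen after their values were seen. The members, lists and rules were chosen with earlier results of these data known. PCR reads are not independent molecules, so counts cover counting error only.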

Additional observations from a re-analysis of the deposited data

How the results depend on the processing

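The mean w difference of -0.60 stayed negative under all 13 alternatives tried and became smaller with a minimum of 100 (-0.52) or 300 plasmid counts (-0.50), without barcodes of 0 RNA counts (-0.52), centred by plasmid count (-0.47), with summed counts (-0.44) and at sites whose forms lay within 1.5 times in plasmid count (-0.50). The 221 sites called lower became 114 with odd and 95 with even barcode columns, and 104 of 651 tested at sites with forms within 1.5 times; fewer barcodes or sites were tested there. The 13 called higher became 5, 2 and 8 under the same settings, and 8 with limma. The cause of the limma count was not tested. With scaling to the median of pool 3 barcodes, the level medians were -0.15 for altered and 0.19 for native elements, since the scale has no fixed zero. With native level and difference from the same barcodes, rho was -0.64 and the lowest group's median difference 0.42. With a minimum of 300 rho was -0.44, and centring gave -1.43 in the highest group. Of 21 called named sites, 9 kept their call in every alternative that could test them. No paired analysis was possible because each group has 1 library. Of 1498 w sites, 942 had at least 10 barcodes in each form.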

Other observations

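There were 46 neighbouring pairs of w sites whose starts on mm9 lay within 100 bases of each other, made of 86 sites. Across these pairs rho was 0.271 for native level and 0.377 for the altered minus native difference, where some sites enter more than 1 pair and all share the 2 libraries. At w868 and w712 on chromosome 2, 93 bases apart, both sites were lowered by alteration. The differences were -1.37 and -1.38 (adjusted p = 4.21e-06 and 0.00325 by the exact rank-sum test). At w1489 and w542 on chromosome 14, 60 bases apart, the altered medians were 2.24 and -0.60 and the native medians 2.67 and 1.10. Their differences were -0.43 and -1.70 (adjusted p = 0.0388 and 0.000897 by the exact rank-sum test). At w1362 and w957 on chromosome 10, 83 bases apart, the differences were -2.53 (adjusted p = 0.0178) and 0.57 (adjusted p = 0.435) by the same test. These pairs were chosen after their values were seen.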
